A study of Mus musculus with 4 samples.

Results

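The 10 genes described here encode core components of planar cell polarity. They are *Celsr1*, *Celsr2*, *Fzd3*, *Fzd6*, *Vangl1*, *Vangl2*, *Dvl2*, *Prickle1*, *Prickle2* and *Ptk7*. They were taken by gene symbol, and each symbol matched 1 gene of the 12814 in the RNA-seq table. Cells were sorted from inner ears of newborn mice that all carried the *Atoh1/nGFP* reporter on a C57BL/6 background, with the ears of several mice pooled for each preparation. Hair cells (HCs) were positive for GFP and for CD326, the epithelial adhesion molecule encoded by *Epcam*. Epithelial non-sensory cells (ENSCs) were positive for CD326 and negative for GFP, so that this gate held supporting cells together with other epithelial cells. Both populations came from the cochlea and from the Vestibular system, which gave 4 populations. The table held 1 value per gene and population, although triplicates were recorded. Whether a value is a pool, a mean or a single library is not given in the sources used here, and each is treated below as 1 library. No value has a replicate error, so a difference between 1 library and another could not be tested. A cell type effect over both organs, or an organ effect over both cell types, was not tested.

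Planar cell polarity orients cells within the plane of an epithelium, and in the inner ear it aligns the hair bundles of neighbouring hair cells. The pathway works through complexes that sit on opposite sides of each cell boundary. The Celsr cadherins bridge neighbouring cells, Frizzled receptors recruit Dishevelled on one side, and Vangl proteins recruit Prickle on the other. In the cochlea and the vestibular organs, loss of core components misorients hair bundles.

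Signals are quantile-normalized read counts per gene with a floor of 20, and all 4 libraries had the same sorted values with a median of 120. The signal grows with transcript length, so levels of different core genes were compared only after division by exonic length (signal per kb). Sums over marker genes are of the undivided signal. Ratios between libraries were given as log2 or as folds of the signal, and a gene was counted as past the threshold at 3-fold or more. Low values up to a library-specific top of between 20 and 30.5 could not be told from the floor, because their order followed the level of the same genes in the other libraries. In bulk libraries, fewer cells of a type and less RNA per cell cannot be told apart. Exonic positions, lengths and GC contents refer to mm9, the build the reads were aligned to.

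All 10 hair cell markers were more than 3-fold higher in HCs than in ENSCs of both organs, and 5 of the 10 lay in the range of the floor in cochlear ENSCs and 8 in vestibular ENSCs. *Epcam* was measured at 1016.75 in cochlear HCs, 3376.25 in cochlear ENSCs, 1139.25 in vestibular HCs and 7511 in vestibular ENSCs. *Cdh1*, the other epithelial marker, was at 6003, 4852.75, 178.5 and 3308.25 in the same order, so that it was higher in cochlear HCs than in cochlear ENSCs. The 10 supporting cell markers summed to 98992.5 in cochlear ENSCs and to between 13851.25 and 23518.5 in the other 3 libraries. A single gene of the list, *Epyc*, held 62028.5 of the cochlear ENSC sum. Between vestibular HCs and ENSCs the supporting cell list was divided, with 4 genes higher in HCs (1 past 3-fold), 5 lower (3 past 3-fold) and a median log2 ratio of -0.12. Of 6 mesenchyme markers 4 were in the table, and their summed signal was 113.75 in cochlear and 166.75 in vestibular HCs, against 1742.5 in cochlear and 1557.25 in vestibular ENSCs. *Kdr*, the only 1 of 7 blood and vessel markers in the table, was at 1461.75 in vestibular ENSCs and between 24.25 and 29.75 elsewhere. The 4 glia markers summed to between 252.25 and 1566.25, with the highest sum in vestibular ENSCs. Of 4 neuron markers, *Neurod1* and *Prph* were not in the table. *Nefl* and *Nefm* were, and summed to 4376 and 4591.25 in HCs against 117.75 and 40 in ENSCs. The authors state that the joint GFP and CD326 gate removed neuronal cells with possible minor GFP signal from the HCs. *Mitf*, the only 1 of 3 melanocyte markers in the table, was at 72.25 and 41.5 in HCs and at 244.25 and 247.5 in ENSCs. The part of these cells in the differences below was not tested.

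**Figure D1:**
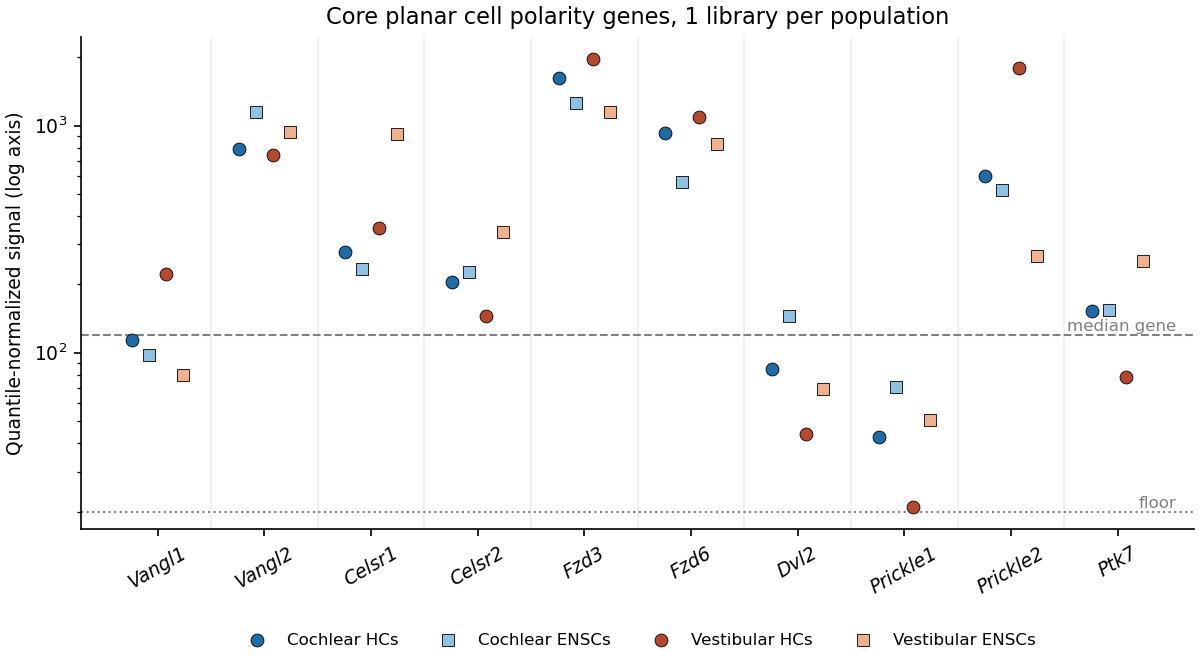
Quantile-normalized signal of the 10 core genes (log axis, no units) in cochlear HCs, cochlear ENSCs, vestibular HCs and vestibular ENSCs, with 1 point per library and no error bars. The dashed line marks the median gene (120) and the dotted line the floor (20). *Prickle2* was highest in vestibular HCs (1799.75), whereas *Celsr1* and *Ptk7* were highest in vestibular ENSCs (918.75 and 253.25).

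Of the 10 genes, 3 passed the threshold in any of the 4 comparisons, where 42.1% of all genes did. These were *Prickle2* and *Ptk7* between vestibular HCs and ENSCs, in opposite directions, and *Celsr1* between the ENSCs of both organs. After the correction for length and GC content given below, *Ptk7* and *Celsr1* did not pass, while *Vangl1* (vestibular HCs against ENSCs) and *Dvl2* (between the ENSCs) did. The sequences upstream of *Prickle2* and *Ptk7* are shown here because these genes passed in each direction among vestibular cells as deposited, and that of *Prickle1* because it is the paralog of *Prickle2* on the other side of the HC to ENSC comparison. Of the 10 genes, 6 had an entry in the RefSeq promoter table (GRCm38.p6), with 10 annotated starts in all. Each run is the 250 bases before an annotated start, written 5′ to 3′ on the gene's strand, which was the minus strand for all 3, with the most upstream start used where there were several. Capitals mark an E-box of the form CAGCTG, a class of site read by basic helix-loop-helix factors, and the GC box GGGCGG or its reverse complement CCGCCC, read by Sp factors.
Prickle2, chr6:92706185-92706434: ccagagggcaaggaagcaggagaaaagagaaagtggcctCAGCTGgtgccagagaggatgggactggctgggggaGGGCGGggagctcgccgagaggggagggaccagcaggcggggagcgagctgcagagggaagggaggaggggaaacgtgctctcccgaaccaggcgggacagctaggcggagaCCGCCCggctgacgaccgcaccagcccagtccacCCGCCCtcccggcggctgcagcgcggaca
Prickle1, chr15:93595903-93596152: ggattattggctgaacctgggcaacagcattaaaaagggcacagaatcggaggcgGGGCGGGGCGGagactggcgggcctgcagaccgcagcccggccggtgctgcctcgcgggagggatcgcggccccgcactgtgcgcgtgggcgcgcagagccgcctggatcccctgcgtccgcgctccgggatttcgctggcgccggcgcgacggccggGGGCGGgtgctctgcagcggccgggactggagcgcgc
Ptk7, chr17:46629505-46629754: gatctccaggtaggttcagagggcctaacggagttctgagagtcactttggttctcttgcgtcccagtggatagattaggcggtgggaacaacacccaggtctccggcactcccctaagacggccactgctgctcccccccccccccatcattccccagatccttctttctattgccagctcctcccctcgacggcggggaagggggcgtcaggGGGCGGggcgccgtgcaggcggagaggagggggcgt
The *Prickle2* window held 1 E-box and 3 GC boxes, and its GC content was 70.0%. The *Prickle1* window held 3 GC boxes, of which a pair overlap, and no E-box, with a GC content of 74.0%. The *Ptk7* window held 1 GC box and no E-box, with a GC content of 64.0%, and the median over all genes' windows was 52.4%. Among the 10 windows of the core genes, 4 lay upstream of *Prickle2* and 2 upstream of *Prickle1*, so they are not independent. Of the 10, 2 held this E-box, both upstream of *Prickle2*, and 8 held a GC box. Of 32851 windows of the same length upstream of all genes, 13.0% held the E-box and 32.7% the GC box, both strands read. The part of the windows' GC content in these matches was not tested. A match of letters is a description and not a measured binding site.

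The Celsr cadherins hold the complexes of neighbouring cells together across their boundary. *Celsr1* (ENSMUSG00000016028, chr15:85729188-85864207, minus strand) gave a signal of 277.75 in cochlear HCs, 234.5 in cochlear ENSCs, 355 in vestibular HCs and 918.75 in vestibular ENSCs. Vestibular ENSCs stood above the other 3 libraries, which lay close to each other. The signal in vestibular HCs was 2.59-fold lower than in vestibular ENSCs, and in the cochlea it was 1.18-fold higher in HCs. *Celsr2* (ENSMUSG00000068740, chr3:108193769-108218470, minus strand), its closest relative among the 10 genes, had the same highest library. Its signal was 205.5 in cochlear HCs, 226 in cochlear ENSCs, 145.25 in vestibular HCs and 341.25 in vestibular ENSCs, with a vestibular ratio 2.35-fold lower in HCs and a cochlear ratio of -0.14 on the log2 scale. With the length and GC correction the vestibular differences were 1.25-fold for *Celsr1* and 1.14-fold for *Celsr2*, both lower in HCs.

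The Frizzled receptors of this pathway, Fzd3 and Fzd6, act together in orienting hair bundles. *Fzd3* (ENSMUSG00000007989, chr14:65819863-65881300, minus strand) had the highest signal per kb of the 10 genes in all 4 libraries. Its signal was 1616.75 in cochlear HCs, 1259.5 in cochlear ENSCs, 1961.5 in vestibular HCs and 1145 in vestibular ENSCs. The log2 ratio of HCs to ENSCs was 0.36 for the cochlea and 0.78 for the Vestibular system, and after the length and GC correction it was 0.32 and 0.33. *Fzd6* (ENSMUSG00000022297, chr15:38837879-38869732, plus strand) was likewise higher in the HCs of both organs. Its signal was 929 in cochlear HCs, 564.75 in cochlear ENSCs, 1095.5 in vestibular HCs and 827.5 in vestibular ENSCs. The *Fzd6* log2 ratios were 0.72 in the cochlea, the highest cochlear ratio of the 10 genes, and 0.40 in the Vestibular system.

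The Vangl proteins span the membrane on the side opposite to Frizzled. *Vangl2* (ENSMUSG00000026556, chr1:173931091-173958575, minus strand), the gene altered in Looptail mice, had the narrowest range of the 10 genes over the 4 libraries. Its signal was 788 in cochlear HCs, 1146.75 in cochlear ENSCs, 745 in vestibular HCs and 935.75 in vestibular ENSCs, with a highest to lowest ratio of 1.54. Both ENSC values were above both HC values, and the log2 ratio of HCs to ENSCs was -0.54 (cochlea) and -0.33 (Vestibular system) as deposited. With the length and GC correction the vestibular ratio turned to 0.26. *Vangl1* (ENSMUSG00000027860, chr3:101960624-102008616, minus strand), its paralog, was higher in HCs of both organs. The *Vangl1* signal was 114.25 in cochlear HCs, 98 in cochlear ENSCs, 221.75 in vestibular HCs and 80 in vestibular ENSCs. Vestibular HCs stood above the other 3 libraries and were 2.77-fold higher than vestibular ENSCs, just under the threshold.

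Dishevelled proteins carry the Frizzled signal into the cytoplasm. *Dvl2* (ENSMUSG00000020888, chr11:69814097-69825803, plus strand) had a signal of 84.75 in cochlear HCs, 145.25 in cochlear ENSCs, 44 in vestibular HCs and 69.5 in vestibular ENSCs. Each cochlear value was above its vestibular counterpart, and HCs were lower than ENSCs of the same organ, with a cochlear log2 ratio of -0.78 and a vestibular one of -0.66 as deposited. With the length and GC correction the vestibular ratio turned to 0.29. Its exons share 1151 bases with *Acadvl* on the opposite strand and 89 bases with *Mir324*, and the strand setting of the counting was not given in the sources used here, so its level is uncertain. For *Vangl1* the only such overlap was 8 bases.

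Prickle proteins bind Vangl from the cytoplasm. *Prickle2* (ENSMUSG00000030020, chr6:92320886-92656139, minus strand) varied most of the 10 genes. Its signal was 602.5 in cochlear HCs, 522.25 in cochlear ENSCs, 1799.75 in vestibular HCs and 266 in vestibular ENSCs. Vestibular HCs were 6.77-fold above vestibular ENSCs, the widest difference of any core gene, whereas cochlear HCs and ENSCs differed by 1.15-fold. Vestibular HCs thus lay above both cochlear values and vestibular ENSCs below them. *Prickle1* (ENSMUSG00000036158, chr15:93329545-93426322, minus strand) had a signal of 42.5 in cochlear HCs, 70.5 in cochlear ENSCs, 21 in vestibular HCs and 50.75 in vestibular ENSCs. Both HC values were below both ENSC values. The vestibular HC value lay within the range of the floor, which in that library reached 30.5, so that *Prickle1* was at least 1.66-fold lower there than in vestibular ENSCs.

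*Ptk7* (ENSMUSG00000023972, chr17:46701400-46766453, minus strand) encodes a transmembrane pseudokinase that interacts genetically with *Vangl2*. Its signal was 153 in cochlear HCs, 153.75 in cochlear ENSCs, 78.25 in vestibular HCs and 253.25 in vestibular ENSCs. The cochlear libraries differed by -0.01 on the log2 scale, whereas vestibular HCs were 3.24-fold lower than vestibular ENSCs, and 1.49-fold lower after the length and GC correction.

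Of the 10 genes, 0 passed 3-fold between cochlear HCs and ENSCs, where 17.6% of all genes did, 8.39% higher in HCs and 9.20% lower. Their log2 ratios lay between -0.78 and 0.72, with 5 genes higher and 5 lower in HCs. The median size of the log2 ratio, sign disregarded, was 0.30 over the core genes and 0.66 over all genes. At 2-fold the count was still 0, against 33.9% of all genes.

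Between vestibular HCs and ENSCs 2 of the 10 genes passed 3-fold, where 28.1% of all genes did. *Prickle2* was the 1 gene higher in HCs, and *Ptk7* the 1 gene lower, with shares of all genes of 13.8% and 14.3%. The count of the core genes was thus not above the background. At 5-fold *Prickle2* alone of the 10 passed, as did 14.2% of all genes. At 2-fold 6 of the 10 passed as deposited, and 48.1% of all genes did likewise. *Vangl1*, *Celsr1* and *Celsr2* joined the pair, and so did *Prickle1*, but only with its vestibular HC value taken as deposited within the range of the floor. The median size of the log2 ratio was 1.25 over the core genes and 0.95 over all genes as deposited, and 0.33 and 0.84 after the length and GC correction given below. With low values at the top of the floor range it was 1.004 and 0.866. Vestibular ENSCs, in which *Celsr1*, *Celsr2* and *Ptk7* were highest, also had the highest *Epcam* and *Kdr* signals, and the part of this in the ratios was not tested.

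The direction was the same in both organs for 9 of the 10 genes, against 70.3% of the 11652 genes with a ratio other than 0 in both organs, and *Celsr1* was the exception. After the length and GC correction it was the same for 6 of the 10 genes, against 70.5% of all genes. *Fzd3*, *Fzd6*, *Vangl1* and *Prickle2* were higher in HCs of both organs, and *Vangl2*, *Celsr2*, *Dvl2*, *Prickle1* and *Ptk7* were lower in both, as deposited. Some of these signs rest on small ratios, such as -0.01 for *Ptk7* in the cochlea.

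**Figure D2:**
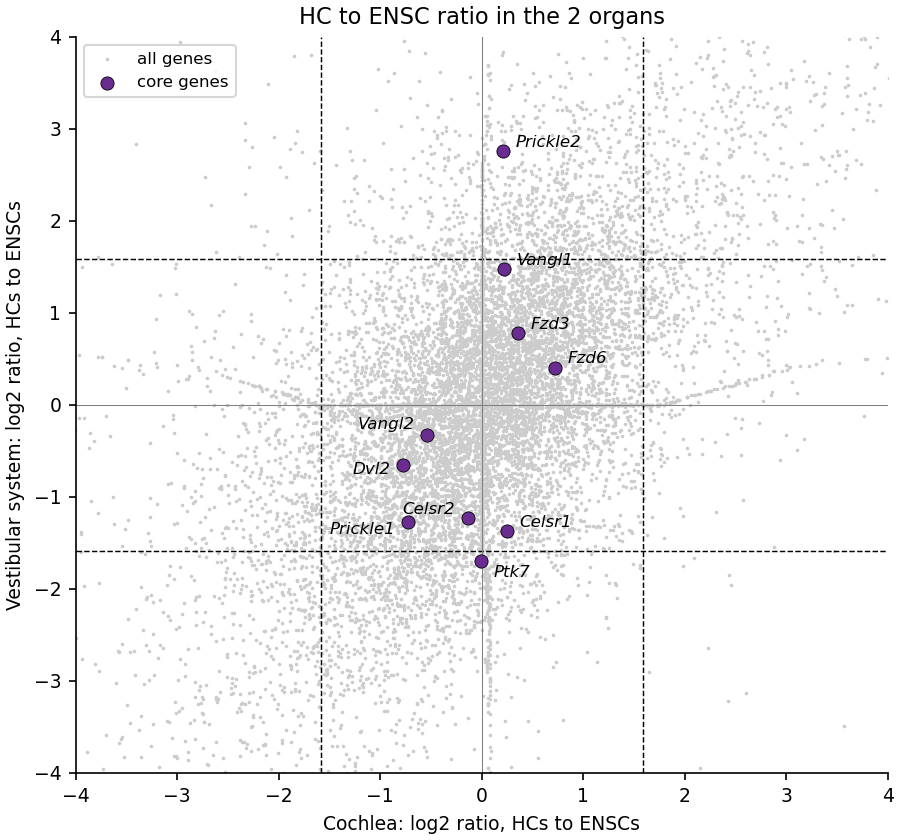
Log2 ratio of HCs to ENSCs in the cochlea (horizontal axis) and in the Vestibular system (vertical axis) for the 10 core genes (purple) and all other genes (grey), with dashed lines at 3-fold. The core genes stayed between -0.78 and 0.72 on the cochlear axis and spread from -1.69 to 2.76 on the vestibular axis, and 524 genes lie beyond the axes, which end at 4 on either side.

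The vestibular ratios went with base composition. Over 10358 genes the log2 ratio of vestibular HCs to ENSCs was lower at a higher GC content of the exons (Spearman's rho -0.395, across genes, which are not independent replicates), and so it was within the 10 core genes (rho -0.709, n = 10, all from the same pair of libraries). In the cochlea rho was -0.0400 over 10722 genes and -0.382 within the 10 core genes. The GC content was 43.7% for *Fzd3*, 46.0% for *Fzd6* and 48.3% for *Prickle2*, and 58.7%, 58.6% and 58.2% for *Celsr1*, *Celsr2* and *Ptk7*, against a median of 48.8% over all genes. The ratios were therefore also given after removal of their smooth trends on exonic length and on GC content over all genes. The corrected vestibular log2 ratio was 2.66 for *Prickle2*, 2.05 for *Vangl1*, 0.33 for *Fzd3* and 0.19 for *Fzd6*. It was -0.58 for *Ptk7*, -0.32 for *Celsr1*, -0.19 for *Celsr2* and -0.70 for *Prickle1*. *Prickle2* and *Vangl1*, both higher in HCs, were then the 2 genes past 3-fold, at 6.33-fold and 4.14-fold, and 24.8% of all genes passed. *Ptk7* was no longer among them, and *Vangl2* and *Dvl2* changed sign, to 0.26 and 0.29.

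**Figure D3:**
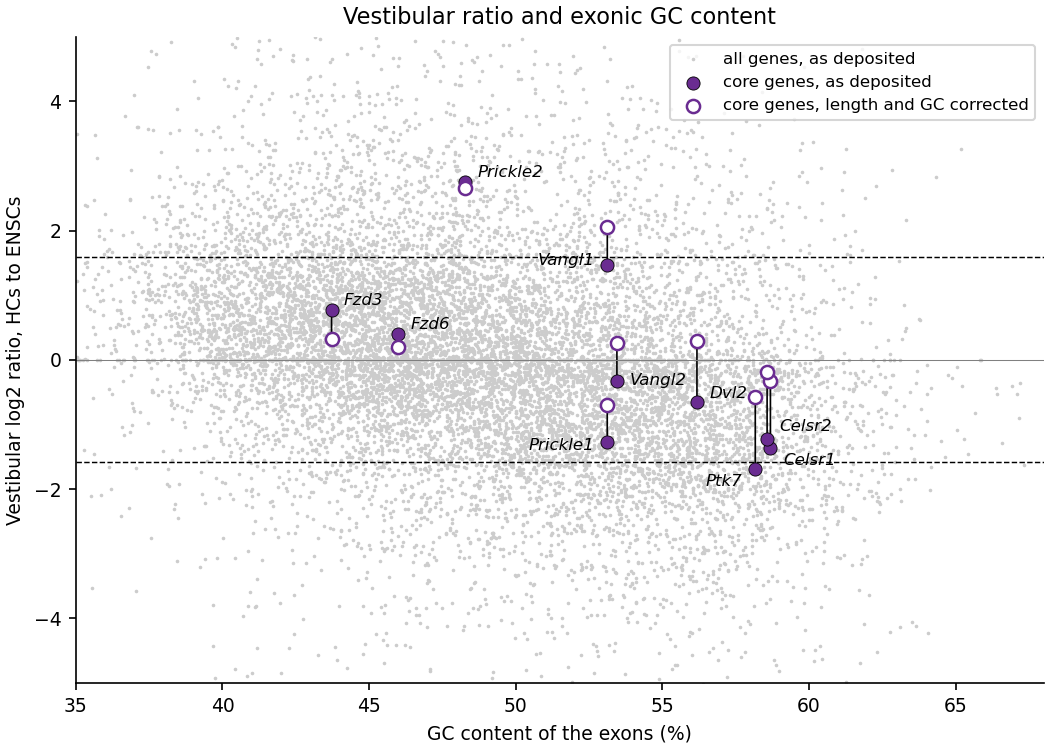
Log2 ratio of vestibular HCs to ENSCs (vertical axis) against the GC content of the exons in percent (horizontal axis) for the 10 core genes as deposited (filled) and after length and GC correction (open), with all genes within the axes in grey and dashed lines at 3-fold. *Prickle2* moved from 2.76 to 2.66, *Vangl1* from 1.47 to 2.05 and *Ptk7* from -1.69 to -0.58.

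Between the HCs of both organs 0 of the 10 genes passed 3-fold, where 9.30% of all genes did. *Prickle2* came nearest, 2.99-fold lower in cochlear than in vestibular HCs, and with the corrected ratio it passed, at 3.02-fold, when 9.11% of all genes passed. At 2-fold *Prickle2* passed, and *Prickle1* with its deposited value only, against 21.0% of all genes. *Prickle1* was on the other side, at 2.02-fold higher in cochlear HCs as deposited and at least 1.39-fold with the vestibular value at the top of the floor range. *Ptk7*, *Dvl2* and *Vangl1* differed by just under 2-fold, with log2 ratios of 0.97, 0.95 and -0.96. For *Fzd3*, *Fzd6*, *Vangl2*, *Celsr1* and *Celsr2* the log2 ratio lay between -0.35 and 0.50.

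Between the ENSCs of both organs 1 of the 10 genes passed 3-fold, where 15.7% of all genes did. This was *Celsr1*, 3.92-fold lower in cochlear than in vestibular ENSCs, and 2.05-fold lower after correction. At 5-fold 0 passed, against 6.27% of all genes, and at 2-fold *Celsr1* and *Dvl2* did, against 34.5%. *Dvl2* was 2.09-fold higher in cochlear ENSCs as deposited and 3.41-fold after correction, when it was the 1 gene past the threshold and 12.3% of all genes passed. *Prickle2* was 1.96-fold higher in cochlear ENSCs. *Celsr2*, *Ptk7* and *Fzd3* changed sign with the correction, from -0.59 to 0.35, from -0.72 to 0.11 and from 0.14 to -0.32 on the log2 scale. Over 10475 genes this comparison also went with GC content (rho -0.453, and -0.430 within the 10 core genes). The comparisons share libraries, so that a high or low value in 1 library enters each comparison it belongs to.

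Per kb of exon, *Fzd3* led in every library, at a signal per kb of 382 in cochlear HCs, 298 in cochlear ENSCs, 464 in vestibular HCs and 271 in vestibular ENSCs. *Fzd6* came next in 3 libraries, at 228, 268 and 203 per kb in cochlear HCs, vestibular HCs and vestibular ENSCs, and *Vangl2* in cochlear ENSCs, at 164 per kb against 138 for *Fzd6*. *Prickle2* had rank 3 in vestibular HCs, at 208 per kb, ahead of *Vangl2* at 107, and rank 6 in vestibular ENSCs, at 30.8. *Celsr1* had rank 4 in vestibular ENSCs, at 83.0 per kb, and ranks 6 to 8 elsewhere. *Prickle1* and *Dvl2* were the lowest pair in 3 libraries, between 4.83 and 13.5 per kb. In cochlear ENSCs *Prickle1* was last at 16.2 per kb, with *Celsr2* above it at 19.6 and *Dvl2* at 23.1. With 1 library each, whether neighbours in this order differ beyond their spread is unknown. Summed over the 10 genes the signal per kb was 920 in cochlear HCs, 798 in cochlear ENSCs, 1175 in vestibular HCs and 847 in vestibular ENSCs. In vestibular HCs *Fzd3*, *Fzd6* and *Prickle2* held 464, 268 and 208 of this sum. These 3 had the lowest GC content of the 10 genes, and the sums were not corrected for GC content.

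The balance within paralog pairs differed between libraries. *Vangl2* exceeded *Vangl1* per kb by 3.98-fold in cochlear HCs, 6.76-fold in cochlear ENSCs, 1.94-fold in vestibular HCs and 6.76-fold in vestibular ENSCs. *Vangl1* thus made up 34.0% of the pair in vestibular HCs and 12.9% in the ENSCs of either organ. *Prickle2* exceeded *Prickle1* by 7.13-fold in cochlear HCs, 3.73-fold in cochlear ENSCs and 2.64-fold in vestibular ENSCs, and in vestibular HCs by at least 29.7-fold. *Fzd3* exceeded *Fzd6* in all libraries, by between 1.34-fold and 2.15-fold. *Celsr1* and *Celsr2* were nearly level in cochlear ENSCs, at 1.08-fold, and *Celsr1* exceeded *Celsr2* by 2.54-fold and 2.80-fold in vestibular HCs and ENSCs.

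**Figure D4:**
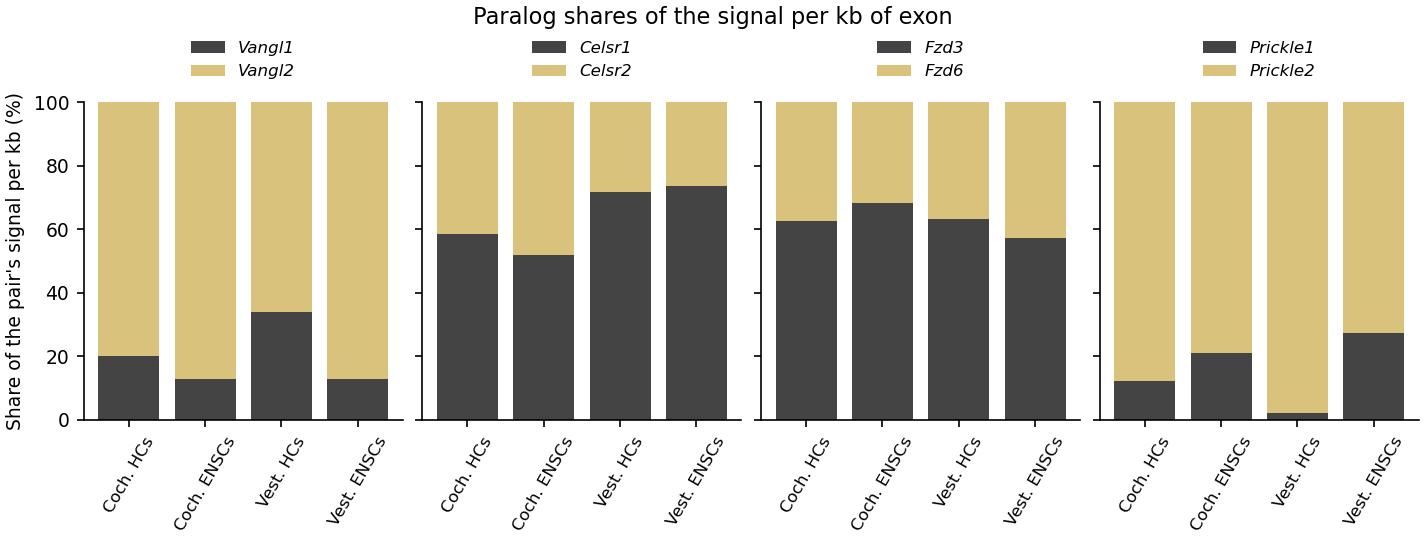
Share of each paralog in the summed signal per kb of exon of its pair, in percent, for 4 pairs in the 4 libraries (1 library per bar, no error bars). *Vangl1* held 34.0% of its pair in vestibular HCs and between 12.9% and 20.1% in the others, and *Prickle1*, drawn at its deposited value, held 2.27% in vestibular HCs.

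Other genes of the pathway were taken from 5 further lists. Their counts are read against the shares of all genes past 3-fold, which were 8.39% higher and 9.20% lower in cochlear HCs, 13.8% and 14.3% in vestibular HCs, and, after correction, vestibular HCs had 1887 of 12799 genes higher and 1285 lower. Of 14 other homologs of core components, of which *Ankrd6* is the counterpart of the fly gene diego and the rest belong to the same families as the core genes, 11 were in the table (not *Fzd10*, *Prickle3* or *Prickle4*), and past 3-fold were 1 higher and 2 lower in cochlear HCs than ENSCs, and 1 higher and 1 lower in vestibular HCs. *Celsr3*, best known from axon tracts, was at 117 and 172.75 in cochlear and vestibular HCs, and in the ENSCs of both organs it was within the range of the floor, so that HCs were at least 5.14-fold and 8.64-fold higher. Among vestibular cells it was the 1 Celsr gene higher in HCs, as deposited and after correction. *Fzd2* was lower in HCs, at 151.75 against 827.25 among cochlear cells and 58 against 236.25 among vestibular cells. *Fzd8* was lower in cochlear HCs, at 61.5 against 351.5, and equal in the vestibular libraries, at 80. With the correction 0 of these genes were past 3-fold lower in vestibular HCs, since the ratio of *Fzd2* was then -1.02 on the log2 scale.

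Among 12 non-canonical Wnt ligands and co-receptors, 10 were in the table (not *Wnt11* or *Wnt5b*). In HCs 0 were past 3-fold higher in either organ, and the numbers lower were 4 of 10 for cochlear and 5 of 10 for vestibular cells, against 9.20% and 14.3% of all genes. The median log2 ratio of the list was -1.13 (cochlea) and -1.61 (Vestibular system). *Wnt5a*, a ligand that signals through this pathway, was at 541.25 in cochlear HCs, 5205 in cochlear ENSCs, 523.25 in vestibular HCs and 1465 in vestibular ENSCs. *Ror1*, a co-receptor for Wnt5a, was at 177 against 549.25 for cochlear cells and at 141 against 1075.5 for vestibular cells. *Wnt7b* was at 43 against 154 in the cochlea, and at least 7.66-fold lower in vestibular HCs than in vestibular ENSCs, where it was at 233.5. The glypicans *Gpc4* and *Gpc6*, which bind Wnt ligands at the cell surface, passed in the Vestibular system, at 188.25 against 1199.5 and 833 against 5255. *Wnt4* passed there as deposited, at 22.25 against 74, but not with its HC value at the top of the floor range, at 2.43-fold. *Wnt9a* was lower in cochlear HCs, at 39 against 170.5, and 2.83-fold higher in vestibular HCs, at 128.25 against 45.25. With the correction 1 of these genes, *Wnt9a*, was past 3-fold higher in vestibular HCs and 5 were lower, with *Wnt5a* among them at -1.64 on the log2 scale and *Wnt4* no longer, at -0.81.

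Of 22 downstream effectors and modulators, all in the table, 1 was past 3-fold higher and 3 lower in cochlear HCs, and 5 higher and 3 lower in vestibular HCs. The numbers lower were near the background of 9.20% and 14.3% of all genes. *Intu*, which links this pathway to cilia, was higher in HCs of both organs, at 676.5 against 84.75 (cochlea) and 495.5 against 53.5 (Vestibular system). *Wdpcp*, another gene of this ciliary group, was at 490.75 against 224.5 and at 602.5 against 77. The formin *Daam1*, which binds Dishevelled, was at 946 against 1084.75 for cochlear cells and at 1672 against 343.75 for vestibular cells. *Dact1*, a Dishevelled binding protein, was at 109.75 against 672.5 for cochlear cells and at 361.25 against 114 for vestibular cells. *Sestd1*, a partner of Dact1, was at 1458.25 against 2285.5 for cochlear cells and at 6149.25 against 2029.75 for vestibular cells. These 3 genes were lower in cochlear HCs and higher in vestibular HCs. *Daam2* and *Gpr125* passed in the cochlea, at least 4.23-fold lower in HCs and at 332.5 against 1243.25. *Csnk1d*, *Csnk1e* and *Rac1* passed in the Vestibular system, at 413.25 against 1304.5, 134 against 421.5 and 1024 against 3677.25. With the correction 6 of the 22 were past 3-fold higher and 2 lower in vestibular HCs, and *Sestd1*, *Csnk1d* and *Csnk1e* did not pass, at log2 ratios of 0.95, -1.03 and -0.82.

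The Fat and Dachsous cadherins form a parallel branch that gives tissues their polarity over longer distances. Of 7 genes of this branch 6 were in the table (not *Dchs2*), and past 3-fold lower were 4 in cochlear and 5 in vestibular HCs, while 0 were higher. *Fat1* was at 517 against 2013.75 for cochlear cells and at 416.5 against 6667.75 for vestibular cells. *Fat4*, which binds Dachsous, was at 116.25 against 938 and at 84.25 against 455.25. *Fjx1*, related to the kinase that modifies these cadherins, was lower in HCs of both organs, at 25 against 146.25 and at least 4.97-fold lower in the Vestibular system. *Dchs1*, the partner of Fat4, was at 31.5 against 39 among cochlear cells but at 57 against 353.75 among vestibular cells. *Fat2* was at 101.75 in cochlear ENSCs and within the range of the floor in cochlear HCs, and among vestibular cells it passed as deposited, at 23.5 against 76.25, but not with its HC value at the top of the floor range, at 2.50-fold. With the correction the vestibular count was 3, and *Fjx1* and *Fat2* did not pass, at log2 ratios of -1.14 and -1.30. *Fat3*, the 1 gene of the branch that did not pass in either organ, was at 1548.5 and 1452.25 in cochlear HCs and ENSCs and at 281.75 and 148.25 in the vestibular ones.

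Hair cells also hold a polarity machinery of their own, which positions the kinocilium and shapes the bundle. Of 12 such genes, all in the table, 3 were past 3-fold higher and 1 lower in cochlear HCs, and 4 higher and 2 lower in vestibular HCs. *Insc* was at 418.75 and 212.25 in HCs, with both ENSC values within the range of the floor, so that HCs were at least 18.4-fold and 10.6-fold higher. *Gpsm2*, which acts with *Insc* and Gαi in the bare zone of the apical surface, was at 451.75 against 181.25 (cochlea) and 562 against 91.25 (Vestibular system). *Emx2*, a transcription factor that sets bundle orientation, was at 1630.25 against 815.75 and at 509 against 116. *Ccdc88c* was at 504 against 115.75 (cochlea) and 269 against 96.5 (Vestibular system). *Prkci*, which encodes an atypical protein kinase C, was at 525.25 against 1759 in the cochlea. *Gnai1* was at 173.75 against 615.75 and *Pard6b* at 159.75 against 2557.25 in the Vestibular system. With the correction 5 of the 12 were past 3-fold higher and 3 lower in vestibular HCs.

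**Figure D5:**
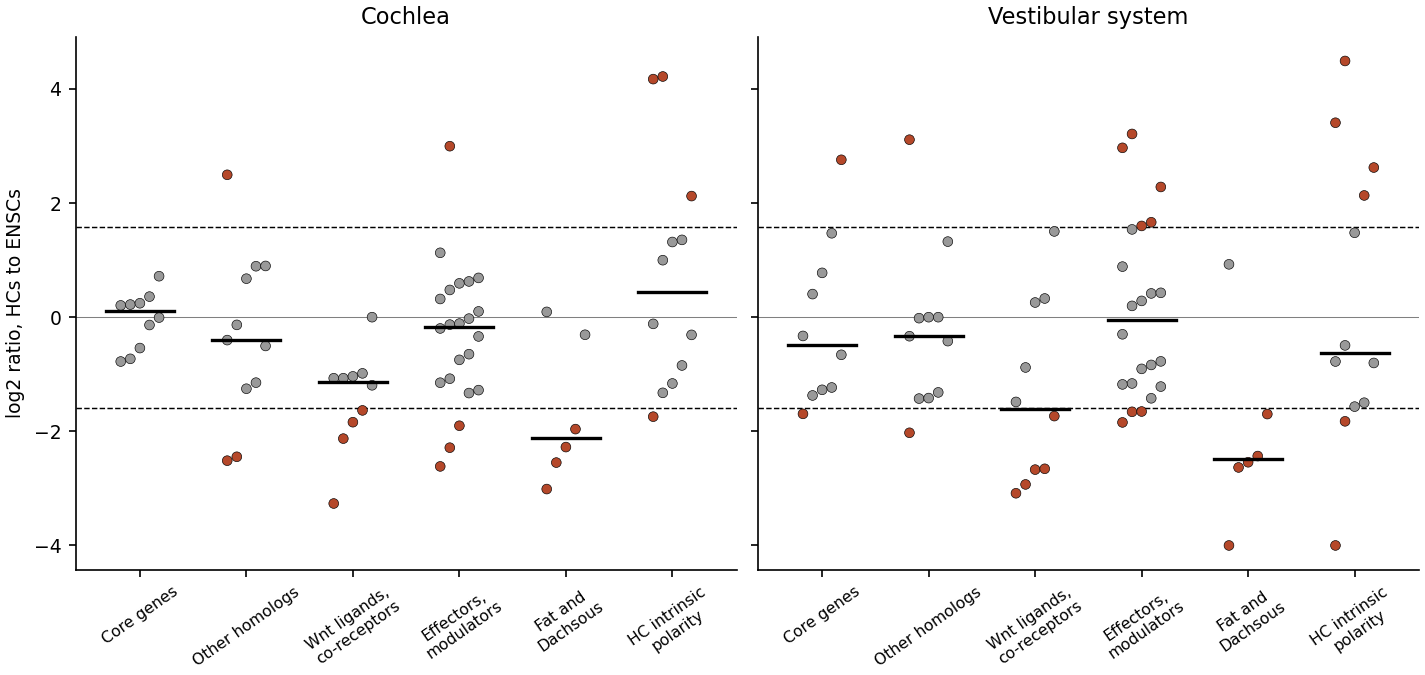
Log2 ratio of HCs to ENSCs in the cochlea (left) and the Vestibular system (right) for the 10 core genes and 5 further lists, with 1 point per gene, a bar at each median, dashed lines at 3-fold and genes past 3-fold in red. The median of the core genes was 0.10 on the left and -0.49 on the right, and that of the Fat and Dachsous branch -2.12 and -2.49.

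The median log2 ratio of HCs to ENSCs over all genes was 0.00 for the cochlea and -0.0045 for the Vestibular system. Beside it the medians of the lists were -0.40 and -0.33 for the other homologs, -0.16 and -0.05 for the effectors, and 0.44 and -0.64 for the hair cell polarity genes. With the length and GC correction the vestibular median turned to 0.61 for the other homologs, to 0.02 for the effectors and to 0.23 for the core genes, against 0.12 over all genes. The Wnt list and the Fat and Dachsous branch had lower medians than the core genes in both organs. Genes of these lists share libraries and are not replicates.

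The profiles of *Prickle2*, *Celsr1* and *Prickle1*, the 3 core genes with the widest range over the libraries as deposited, were compared with those of 6727 protein-coding genes. Likeness was measured as the distance between log2 signals over the 4 libraries, each gene centred on its own mean, with 0 for the same profile. The nearest to *Prickle2* were *Ankrd26* at 0.29, *Fam196a* at 0.32 and *Smyd3* at 0.35. Those nearest to *Celsr1* were *Rgs2* at 0.13, *Pfkl* at 0.15 and *Bag6* at 0.16. With its vestibular HC value at the top of the floor range, *Prickle1* had a range of 1.21 on the log2 scale, below those of *Dvl2*, *Ptk7*, *Vangl1* and *Celsr2*, so its nearest profiles rest on a value in that range. As deposited they were *Dhrs1* at 0.18, *Magoh* at 0.21 and *Cdc123* at 0.23. With 4 libraries a small distance is a description of these libraries.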

How the data were processed

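RNA of the sorted HCs and ENSCs was amplified (NuGEN Ovation) and sequenced. The authors mapped the leading 50 nt of the reads on mm9 using TopHat and counted them with HTSeq. They then applied quantile normalization over the 4 populations and a floor of 20, so the deposited unit is a normalized signal for each gene. Versions are not given in the sources used here. Quantile normalization removes differences in depth between libraries, and the depth per library is unknown. A column headed non-HC was matched to the ENSC sample of its organ, and the table held no columns of the authors' own comparisons.

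From the signal, log2 ratios were computed with no pseudocount for 4 comparisons, and genes at 3-fold or more were counted. With 1 library per group no test was run. Exonic length and GC content came from GENCODE on NCBIM37 (12799 of 12814 genes). The correction subtracted local regression trends (fraction 0.3, 2 iterations, statsmodels 0.14.6) on length and then GC. Python 3.11.15, pandas 2.3.3, numpy 2.4.6 and matplotlib 3.10.9 were used, and the steps were tested on simulated data.

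The genes and lists were chosen with earlier results of these data known. All core genes were named, together with genes of 5 pathway lists past 3-fold in either HC to ENSC comparison and the 3 nearest profiles of the 3 core genes with the widest range. A gene past 3-fold in the hair cell polarity list is counted but not reported here by name. Genes needed a signal of at least 200 in 1 library to enter that search. Alternatives were floors of 50 and 100, pseudocounts of 20 and 100, median centring, thresholds of 2-fold and 5-fold, low values set to the top of the floor range, and the length and GC correction.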

Additional observations from a re-analysis of the deposited data

Results flagged for a closer look

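The log2 ratio of HCs to ENSCs had opposite signs in the cochlea and the Vestibular system in 1 of the 10 core genes and in 9 of the 61 pathway list genes in the table, against 29.7% of the 11652 genes with a ratio other than 0 in both organs. Unlike the 11652, the 61 include *Fzd8*, *Fzd9* and *Ror2*, each with a ratio of 0 in 1 organ, which could not have opposite signs. Of the 9 list genes with opposite signs, 4 were past 3-fold in either organ, and the other 5 were under 3-fold in both. The vestibular minus cochlear difference of the log2 ratios was -1.62 for *Celsr1*, which went from 0.24 in the cochlea to -1.37 in the Vestibular system. After length and GC correction its ratios were 0.20 and -0.32. The 4 list genes belonged to the Wnt and effector lists, and these 4 were lower in cochlear HCs and higher in vestibular HCs. Their differences were 4.28 for *Dact1*, 3.63 for *Wnt9a*, 2.48 for *Daam1* and 2.25 for *Sestd1*. Of the 5 genes under 3-fold, some went the other way, such as *Pak1*, from 1.35 in the cochlea to -0.80 in the Vestibular system. With 1 library per population these differences were not tested.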

How the results depend on the processing

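No paired test was run, since the organs gave only 2 pairs of HC and ENSC libraries. With 1 library per group no replicate could be left out. A value was taken as moved beyond 1.5 times, since there was no replicate spread to set it against. The cochlear comparison of HCs with ENSCs kept its counts of 0 core genes past the threshold under all alternatives. In the Vestibular system the count of core genes higher in HCs was 1, and it was 2 at 2-fold and 2 with the length and GC correction. The count of those lower in HCs was 1, and it was 4 at 2-fold and 0 at 5-fold, with a floor of 100, with a pseudocount of 20 or 100, and with the correction. This gene was *Ptk7*, whose vestibular log2 ratio of -1.69 became -1.34, -1.48, -0.99 and -0.58 under the last 4 of these. The vestibular median over the core genes was -0.49 and became 0.23 with the correction. It was -0.18 with a floor of 50 and 0.0 with a floor of 100, both within 1.5 times. Between HCs of both organs the counts of 0 became 1 higher and 1 lower at 2-fold (10.5% each) and 1 lower with the correction (4.81%). Between ENSCs the count of 0 higher became 1 at 2-fold (17.3%) and 1 with the correction (6.99%). The count of 1 lower there became 0 at 5-fold (3.21%) and 0 with the correction (5.31%). A 2-fold threshold with low values at the top of the floor range was added after seeing the data. It gave 2 core genes higher and 3 lower in vestibular HCs (23.5% and 21.5% of all genes), 0 higher and 1 lower in cochlear against vestibular HCs (8.58% and 9.84%), and 1 higher and 1 lower in cochlear against vestibular ENSCs (17.3% and 16.7%). No ratio past the threshold changed sign. The cause of these shifts was not tested. With 1 library per population, a difference cannot be told from the spread between preparations.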
